A study of Mus musculus with 10 samples.

Results

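R-loops are 3-stranded structures in which a nascent transcript pairs again with its DNA template and leaves the other DNA strand unpaired. Cells keep them in check by cutting the RNA with RNase H enzymes, by unwinding the hybrid with helicases, by relaxing the negative supercoils behind RNA polymerase that favor them, and by packaging or degrading the RNA before it can anneal. DHX9, the protein encoded by the gene floxed in these mice, is an RNA helicase that also acts on RNA:DNA hybrids. Here 9 genes of these routes were followed in mouse bone marrow progenitors: Rnaseh1, Rnaseh2a, Rnaseh2b, Rnaseh2c, Aqr, Top1, Top3b, Thoc1 and Xrn2. They form a list of R-loop resolving enzymes, which was drawn up with earlier results of these data known. All 9 were found by symbol among the 55359 genes of the deposited table, and all 9 were among the 18742 genes tested, those averaging 0.1 FPKM or more.

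RNA-seq had been done on Lin- bone marrow cells, which remain once cells bearing mature lineage markers have been depleted. The 5 WT libraries came from Dhx9f/f mice, and the 5 cKO libraries from mice of the genotype Dhx9f/f;MX1. Every mouse, WT included, carried the floxed Dhx9 allele, and the cKO mice also carried Cre under the Mx1 promoter, which responds to interferon and is switched on by injecting poly(I:C), a mimic of double-stranded RNA. Mx1-Cre is active in tissues other than blood too. By the study's methods, mice with Mx1-Cre were given repeated injections of poly(I:C). Analysis followed by default a week after the earliest injection, and legends of other experiments apply this timing to WT mice as well. For the RNA-seq itself, the sources used here do not describe the treatment of either group or the ages of the sequenced mice. If the sequenced WT mice had not been injected, poly(I:C) and genotype cannot be told apart. The labels of the cKO samples describe the genotype as a knock down.

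The unit was FPKM, fragments scaled by transcript length and library size, so levels can be compared between genes. Depth was read from the values at 13839872 to 18710954 fragments per library. The 9 genes received 114 to 1184 fragments per kilobase in a library, which corresponds to a counting error of 9.35% to 2.91% for 1 kilobase. Several facts of the libraries bear on all that follows. Dhx9 itself was at 68.96, 72.42, 72.18, 69.55 and 65.43 FPKM in WT and at 130.82, 148.8, 131.25, 156.49 and 131.98 FPKM in cKO 1 to 5, a log2 fold change of 1.0, so the targeted gene was higher in the libraries labelled as its knockout. The study itself reports less Dhx9 in bone marrow cells of Dhx9f/f;MX1 mice after poly(I:C), by qRT-PCR and by western blot. The table holds 1 value per gene, in which exons inside and outside the floxed part cannot be told apart. Because of the higher Dhx9 values, the second group is called the libraries labelled cKO throughout. Xist, expressed from the inactive X chromosome of females, was at 99.19 to 127.76 FPKM in WT 3, 4 and 5 and at or under 0.09 FPKM in the other 7 libraries, so sex differed between the groups. Erythroid markers summed to 1435 to 2948 FPKM in WT and 3580 to 5406 FPKM in the libraries labelled cKO, with 17 of 18 higher. Markers of other lineages went the opposite way: monocyte and dendritic cells from 909 to 1575 FPKM down to 8.5 to 268.6 FPKM (12 of 14 genes lower), megakaryocytes from 289 to 1324 down to 87.1 to 190 (8 of 8), mast cells, basophils and eosinophils from 869 to 1952 down to 137 to 746 (8 of 8), neutrophils from 2748 to 3735 down to 148 to 2633 (5 of 13), T and NK cells from 83.3 to 110 down to 7.80 to 31.3 (6 of 10), B-lymphoid cells from 126 to 149 down to 2.68 to 59.7 (4 of 7 tested) and stromal and endothelial cells from 21.1 to 30.5 down to 5.03 to 10.6 (5 of 8 tested, with 1 higher). No marker was listed at 0 in all 10 libraries. In bulk RNA fewer cells of a type and less RNA per cell cannot be told apart, and the part of this shift in the results on the 9 genes was not tested. Library cKO 1 stood apart from the other 4 of its label, with the highest neutrophil sum (2633 against 148 to 1131 FPKM) and the highest erythroid sum (5406 FPKM), and values of the 9 genes and counts of the lists that move with it are given with and without it.

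Of the 9 genes, 4 were higher in the libraries labelled cKO at an adjusted p under 0.05 (limma with Benjamini-Hochberg adjustment over all genes tested), namely Thoc1, Rnaseh2a, Xrn2 and Aqr. Top3b was the 1 gene that was lower. Over all genes tested, 16.7% were higher and 28.3% were lower by the same rule. No member reached the 2-fold change that the study also asked for, whereas 4.60% of all genes tested were higher and 16.8% lower by both criteria. An unadjusted p under 0.05 from limma was reached by the same 5 members. Of the 18742 genes tested, 8438 passed already at an adjusted p under 0.05, so at least as many reach an unadjusted one. The median log2 fold change of the 9 genes was 0.24, beside -0.11 for all genes tested, whose quartiles were at -0.74 and 0.30. Estimates for 7 of the 9 genes lay above 0. The libraries of both labels did not overlap for 3 members, all higher in those labelled cKO (Thoc1, Rnaseh2a and Xrn2), and no member separated in the other direction. Over all genes tested, 10.6% separated upward and 21.6% downward.

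**Figure D1:**
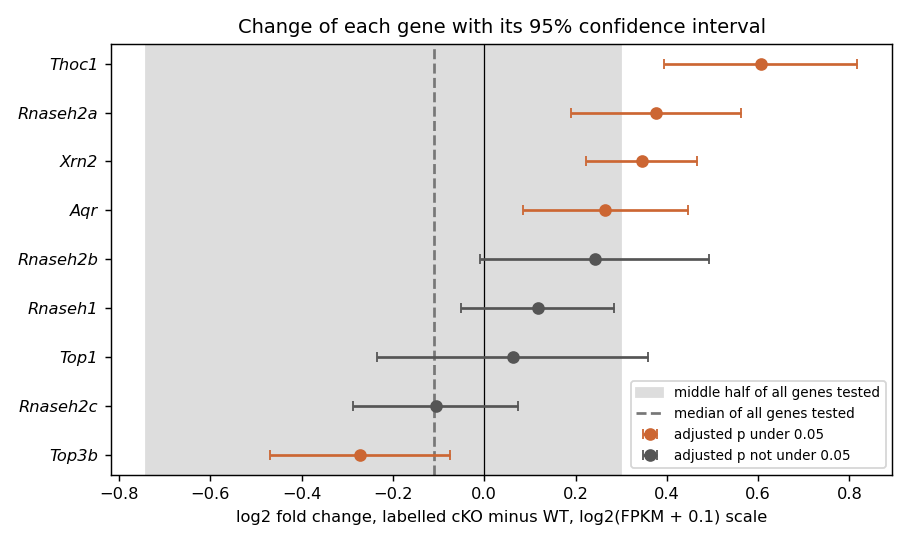
Log2 fold change of each of the 9 genes (libraries labelled cKO minus WT, on the log2(FPKM + 0.1) scale) with its 95% confidence interval; orange marks an adjusted p under 0.05. The grey band spans the quartiles of all genes tested, -0.74 and 0.30, and the dashed line their median of -0.11. The intervals of Thoc1, Rnaseh2a, Xrn2 and Aqr lie above 0, that of Top3b lies below 0 and the other 4 include 0.

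In WT the order of levels was Xrn2 (51.5 FPKM on average), Rnaseh2c (49.3), Top1 (28.1), Rnaseh2a (18.5), Aqr (16.1), Top3b (12.1), Rnaseh2b (11.7), Rnaseh1 (10.4) and Thoc1 (7.95). Neighbours in this order whose ranges over the 5 libraries overlapped were Xrn2 and Rnaseh2c, Rnaseh2a and Aqr, Top3b and Rnaseh2b, and Rnaseh2b and Rnaseh1, and the other neighbours were separate. All 9 were well expressed genes, from the 65.2 percentile of the genes tested for Thoc1 to the 94.7 percentile for Xrn2. In the libraries labelled cKO the top 5 were the same in the same order, Xrn2 (65.3 FPKM) was now separate from Rnaseh2c (46.1), and Top1 overlapped Rnaseh2a while Aqr overlapped Rnaseh2b. Below these 5 came Rnaseh2b (13.9), Thoc1 (12.1), Rnaseh1 (11.3) and Top3b (10.03), each overlapping the next. Thoc1 thus stood last of the 9 in WT and Top3b last in the libraries labelled cKO.

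**Figure D2:**
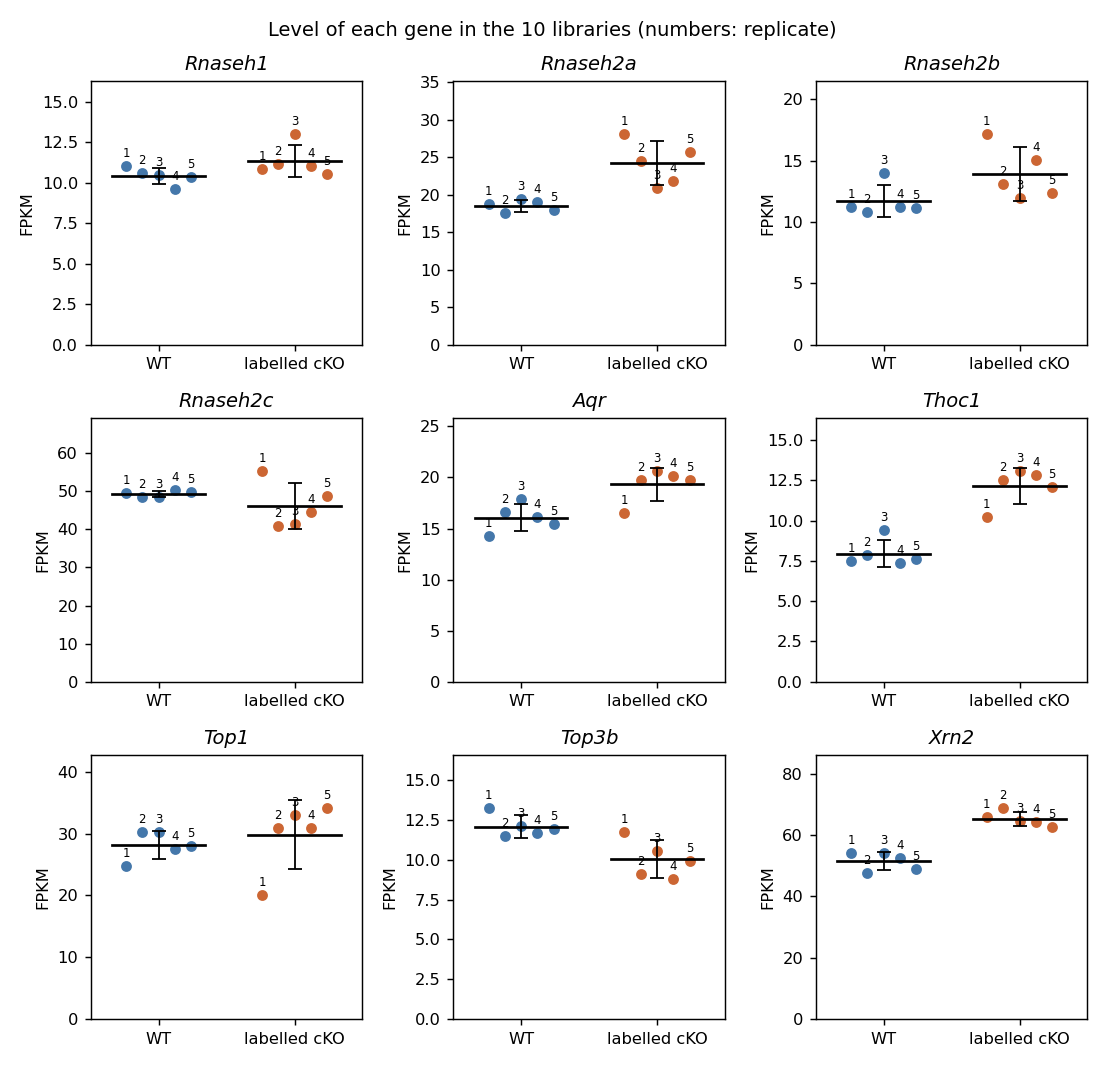
FPKM of each of the 9 genes in the 5 WT libraries (blue) and the 5 libraries labelled cKO (orange), each axis starting at 0; small numbers give the replicate, bars the mean and whiskers 1 SD. All 5 orange points lie above all 5 blue ones for Rnaseh2a, Thoc1 and Xrn2, and library cKO 1 lies apart from the other 4 for Aqr (16.54 FPKM) and Top1 (20.12 FPKM).

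The RNase H enzymes cut the RNA strand of a hybrid. RNase H1 is a single polypeptide, and RNase H2 is a complex of the catalytic subunit A with the accessory subunits B and C, which also starts the removal of single ribonucleotides from DNA. Mutations in the genes of the RNase H2 subunits cause Aicardi-Goutieres syndrome, an inflammatory disease with high interferon. The catalytic subunit gene Rnaseh2a (ENSMUSG00000052926; GRCm39 chromosome 8 from 85683232 to 85696408, minus strand) was at 18.72, 17.55, 19.39, 19.07 and 17.91 FPKM in WT 1 to 5 and at 28.13, 24.52, 20.85, 21.89 and 25.67 FPKM in cKO 1 to 5. Every library labelled cKO lay above every WT library, the lowest of the former (cKO 3) by a small margin. The means were 18.5 ± 0.777 and 24.2 ± 2.93 FPKM (SD, n = 5 each), a 1.30-fold difference with a 95% confidence interval of 1.14 to 1.48 (log2 fold change 0.38, SE 0.0842, adjusted p = 0.00404 from limma). The exact permutation test gave p = 0.00794, the smallest that 5 against 5 libraries allow.

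Rnaseh2b (ENSMUSG00000021932; chromosome 14 from 62530038 to 62630559, plus strand) was at 11.26, 10.81, 14.00, 11.25 and 11.17 FPKM in WT and at 17.20, 13.10, 11.94, 15.02 and 12.35 FPKM in cKO 1 to 5. WT 3 lay within the range of the other label, and the groups overlapped. With means of 11.7 ± 1.30 and 13.9 ± 2.18 FPKM, the 1.18-fold difference had an interval of 0.994 to 1.41 and did not pass (log2 fold change 0.24, SE 0.114, adjusted p = 0.107 from limma; exact permutation p = 0.0794). Without WT 3 it passed at 0.31 (adjusted p = 0.0430 from limma). Rnaseh2c (ENSMUSG00000024925; chromosome 19 from 5651868 to 5657526, plus strand) was almost constant in WT, at 49.39, 48.52, 48.47, 50.36 and 49.85 FPKM. The libraries labelled cKO were at 55.32, 40.74, 41.31, 44.44 and 48.64 FPKM, so that cKO 1 was above all WT libraries and cKO 2, 3 and 4 were below them. The means of 49.3 ± 0.826 and 46.1 ± 6.04 FPKM gave a log2 fold change of -0.11 (SE 0.0819, adjusted p = 0.318 from limma), with an interval of 0.819 to 1.05-fold. Leaving out cKO 1 gave -0.17 with an adjusted p of 0.0287.

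The subunits of a complex can be compared as ratios within a library, which no scaling of the library can alter. Reads shared with overlapping genes, described below, would still enter such a ratio. The ratio of Rnaseh2c to Rnaseh2a was 2.64, 2.76, 2.50, 2.64 and 2.78 in WT and 1.97, 1.66, 1.98, 2.03 and 1.89 in the libraries labelled cKO, without overlap. The mean ratio went from 2.67 ± 0.115 to 1.91 ± 0.146, a log2 difference of -0.49 (exact permutation p = 0.00794, adjusted over the 3 ratios 0.0238). For Rnaseh2c to Rnaseh2b the ratio was 4.39, 4.49, 3.46, 4.48 and 4.46 in WT and 3.22, 3.11, 3.46, 2.96 and 3.94 in the libraries labelled cKO. Of the latter, 4 lay below the lowest WT library, WT 3, though cKO 3 only just did, and the log2 difference was -0.35 (exact permutation p = 0.0159, adjusted 0.0238). Rnaseh2b to Rnaseh2a overlapped between the groups and did not pass, at 0.631 ± 0.0527 and 0.577 ± 0.0777 (log2 difference -0.13, exact permutation p = 0.214). Both ratios with Rnaseh2c in the numerator were lower also without cKO 1, at -0.50 (exact permutation p = 0.00794) and -0.34 (exact permutation p = 0.0238).

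**Figure D3:**
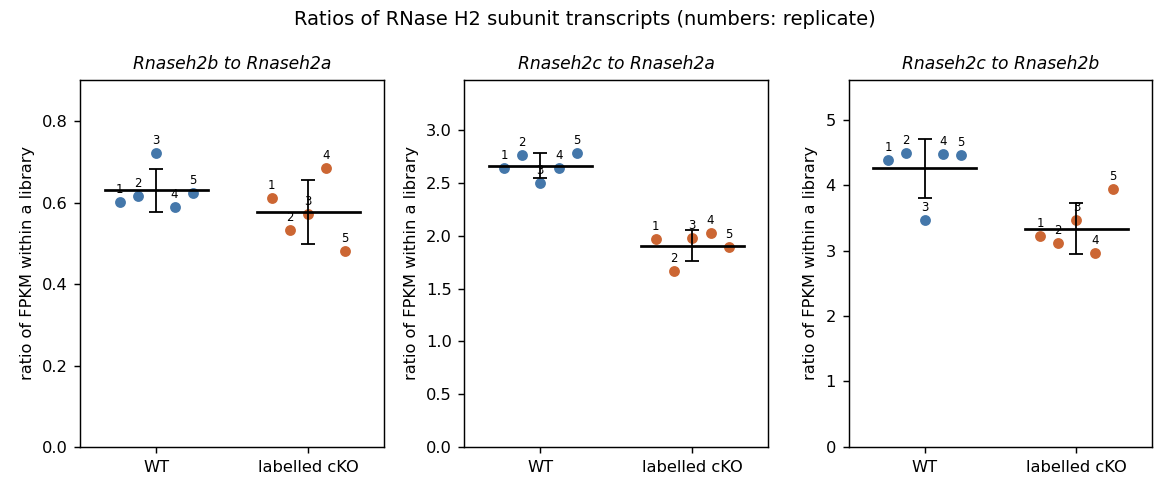
Ratios of the FPKM of RNase H2 subunit genes within each library, WT in blue and labelled cKO in orange, with the replicate number, the mean (bar) and 1 SD (whiskers); axes start at 0. Rnaseh2c to Rnaseh2a falls from 2.50 to 2.78 in WT to 1.66 to 2.03 in the libraries labelled cKO, while Rnaseh2b to Rnaseh2a overlaps.

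Rnaseh1 (ENSMUSG00000020630; chromosome 12 from 28699571 to 28709597, plus strand), which encodes the enzyme of nucleus and mitochondria that needs a run of ribonucleotides, was at 11.05, 10.63, 10.48, 9.63 and 10.34 FPKM in WT. The libraries labelled cKO were at 10.87, 11.18, 13.03, 11.06 and 10.54 FPKM, where only cKO 3 stood out. The means of 10.4 ± 0.518 and 11.3 ± 0.977 FPKM differed by a log2 fold change of 0.12 (SE 0.0759, adjusted p = 0.236 from limma; exact permutation p = 0.0556). The interval ran from 0.966 to 1.22-fold. Without cKO 3 the log2 fold change was 0.066 (adjusted p = 0.455 from limma).

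Promoter sequences are shown for Rnaseh2a and Rnaseh2c, the subunit genes whose ratio differed, and for Xrn2 and Aqr, which were higher together with Rnaseh2a. Each is the 250 bases before the annotated start of the canonical transcript in GRCm39, read 5′ to 3′ on the gene's strand: chr8:85696409-85696658, minus strand, for Rnaseh2a; chr19:5651618-5651867, plus strand, for Rnaseh2c; chr2:146854433-146854682, plus strand, for Xrn2; and chr2:114005821-114006070, minus strand, for Aqr. The window of Rnaseh2a also lies within Prdx2, a gene on the opposite strand described below, whose start is 811 bases from that of Rnaseh2a. Capitals mark matches to the motifs named next.
Rnaseh2a: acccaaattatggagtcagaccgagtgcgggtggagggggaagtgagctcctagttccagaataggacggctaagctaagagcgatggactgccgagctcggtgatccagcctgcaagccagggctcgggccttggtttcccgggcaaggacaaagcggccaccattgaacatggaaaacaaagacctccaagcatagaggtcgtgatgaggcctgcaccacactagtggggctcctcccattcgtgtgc
Rnaseh2c: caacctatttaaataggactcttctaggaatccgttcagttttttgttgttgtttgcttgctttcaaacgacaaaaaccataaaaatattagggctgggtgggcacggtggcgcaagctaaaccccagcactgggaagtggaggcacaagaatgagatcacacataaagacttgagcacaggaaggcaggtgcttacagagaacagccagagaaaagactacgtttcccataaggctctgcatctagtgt
Xrn2: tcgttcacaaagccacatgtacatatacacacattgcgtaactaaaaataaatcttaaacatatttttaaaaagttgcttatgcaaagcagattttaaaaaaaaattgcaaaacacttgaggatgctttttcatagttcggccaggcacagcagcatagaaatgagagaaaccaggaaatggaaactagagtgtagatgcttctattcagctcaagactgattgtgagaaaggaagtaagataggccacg
Aqr: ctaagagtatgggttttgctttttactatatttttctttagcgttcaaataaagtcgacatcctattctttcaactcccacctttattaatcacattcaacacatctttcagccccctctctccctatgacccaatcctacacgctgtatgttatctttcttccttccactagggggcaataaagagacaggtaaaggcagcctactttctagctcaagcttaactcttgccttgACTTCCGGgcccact
In all, 5 short motifs were searched on both strands, chosen after the expression values were known: E2F (TTTCCCGC or TTTGGCGC), ETS (CCGGAAGT), the NRF1 core (CGCATGCG), CRE (TGACGTCA) and YY1 (AAGATGGC). None of these overlaps another in the 4 sequences. That of Aqr holds an ETS match starting 15 bases before the start, and the other 3 hold none. Over the 9 genes, ETS matches were in 2 (Aqr and Top3b), and 3.84% of the 12877 promoters of protein-coding genes tested held one. The E2F, NRF1, CRE and YY1 letters, present in 2.28%, 2.22%, 1.98% and 1.82% of those promoters, were in none of the 9. GC content of the 9 ran from 35.6% to 64.4%, beside a median of 56.0%. A match describes letters in the window and nothing more.

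Topoisomerases remove the supercoils that open DNA to the transcript. Top1 encodes the main enzyme that relaxes supercoils during transcription, and Top3b a topoisomerase that acts on both DNA and RNA with its partner TDRD3. Top3b (ENSMUSG00000022779; chromosome 16 from 16688572 to 16711269, plus strand) was at 13.25, 11.47, 12.11, 11.68 and 11.93 FPKM in WT and at 11.77, 9.12, 10.56, 8.79 and 9.92 FPKM in cKO 1 to 5. Of the latter, 4 were below all WT libraries, and cKO 1 lay within the WT range. The means of 12.1 ± 0.694 and 10.03 ± 1.19 FPKM gave a 0.828-fold level with an interval of 0.722 to 0.949 (log2 fold change -0.27, SE 0.0894, adjusted p = 0.0282 from limma; exact permutation p = 0.0238). This call was lost under median-ratio scaling (-0.17, adjusted p = 0.128 from limma), under quantile normalization and when any of WT 1, WT 5, cKO 2 or cKO 4 was left out (adjusted p = 0.0504 to 0.0709 from limma).

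Top1 (ENSMUSG00000070544; chromosome 2 from 160487802 to 160566298, plus strand) was at 24.72, 30.26, 30.22, 27.43 and 28.06 FPKM in WT. In the libraries labelled cKO it was at 20.12 in cKO 1 and at 30.88, 32.94, 30.90 and 34.14 FPKM in cKO 2 to 5, so 1 library lay below all WT libraries and 4 lay above them. The means were 28.1 ± 2.29 and 29.8 ± 5.59 FPKM, and the log2 fold change of 0.06 (SE 0.134, adjusted p = 0.738 from limma) had an interval of 0.850 to 1.28-fold. Without cKO 1 the log2 fold change was 0.20 with an adjusted p of 0.0381 from limma.

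Aqr and Xrn2 act on the transcript as it is made. AQR is a helicase of the spliceosome that binds introns and limits R-loops. Aqr (ENSMUSG00000040383; chromosome 2 from 113931011 to 114017505, minus strand) was at 14.30, 16.63, 17.88, 16.11 and 15.45 FPKM in WT and at 16.54, 19.70, 20.64, 20.13 and 19.71 FPKM in cKO 1 to 5. Libraries cKO 2 to 5 were above all of WT, and cKO 1 fell within the WT range. The means of 16.1 ± 1.33 and 19.3 ± 1.61 FPKM differed 1.20-fold, with an interval of 1.06 to 1.36 (log2 fold change 0.27, SE 0.0820, adjusted p = 0.0215 from limma; exact permutation p = 0.0238). XRN2 is the nuclear exonuclease that degrades the RNA left on the polymerase after cleavage at the end of a gene. Xrn2 (ENSMUSG00000027433; chromosome 2 from 146854683 to 146920721, plus strand) was at 54.07, 47.78, 54.14, 52.39 and 48.88 FPKM in WT and at 65.92, 68.87, 64.75, 64.32 and 62.75 FPKM in cKO 1 to 5. The groups were separate, and cKO 1 lay within the others of its label. The means of 51.5 ± 2.96 and 65.3 ± 2.29 FPKM differed 1.27-fold, with an interval of 1.17 to 1.38 (log2 fold change 0.34, SE 0.0550, adjusted p = 5.78e-04 from limma; exact permutation p = 0.00794).

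THOC1 is a subunit of the THO complex, the core of TREX, which coats nascent mRNA and hands it to the export machinery. Thoc1 (ENSMUSG00000024287; chromosome 18 from 9957848 to 10002010, plus strand) had the largest difference of the 9. WT libraries were at 7.49, 7.86, 9.44, 7.37 and 7.60 FPKM, and those labelled cKO at 10.22, 12.54, 13.08, 12.80 and 12.08 FPKM. The lowest of the latter, cKO 1, was above the highest WT library, WT 3. The means were 7.95 ± 0.851 and 12.1 ± 1.14 FPKM, a 1.52-fold difference with an interval of 1.31 to 1.76 (log2 fold change 0.61, SE 0.0957, adjusted p = 5.53e-04 from limma; exact permutation p = 0.00794). Without cKO 1 the log2 fold change was 0.67.

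**Figure D4:**
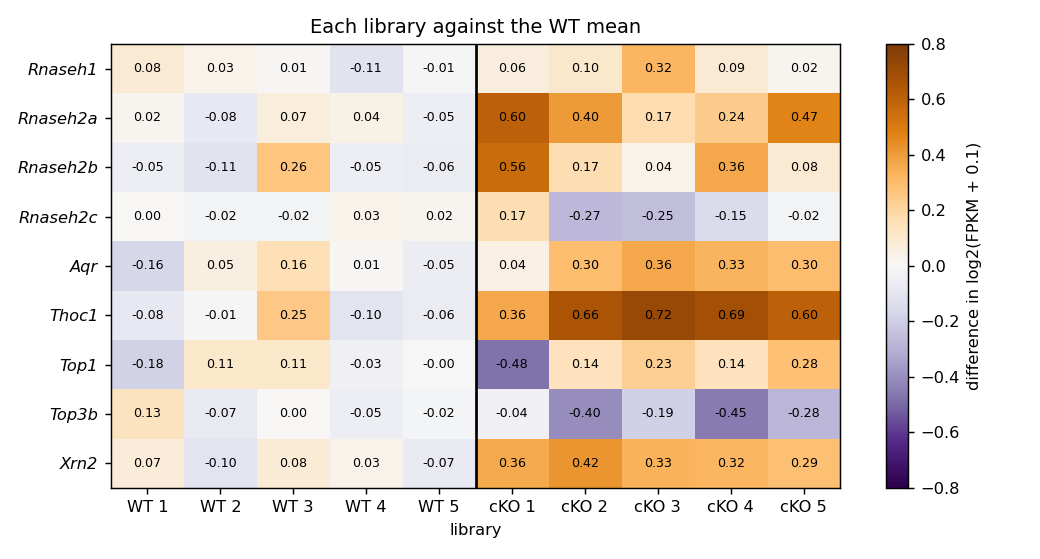
Difference of each library (columns) from the WT mean for each of the 9 genes (rows), in log2(FPKM + 0.1); purple is lower and orange higher. Thoc1 is above the WT mean in all 5 libraries labelled cKO, from 0.36 to 0.72, and column cKO 1 is the highest of its label for Rnaseh2a, Rnaseh2b, Rnaseh2c and Top3b and the lowest for Aqr, Thoc1 and Top1.

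Within the 5 libraries labelled cKO the genes therefore split by their level in cKO 1. It had the highest level of the 5 for Rnaseh2a, Rnaseh2b, Rnaseh2c and Top3b, and the lowest for Aqr, Thoc1 and Top1. Without this library, 5 of the 9 genes were higher (Top1 in addition) and 2 lower (Rnaseh2c in addition). The counts over all 18742 genes tested moved too, from 3138 to 3616 higher and from 5300 to 5752 lower. Among the 7 libraries with little Xist, WT 1 and 2 against all 5 labelled cKO, Thoc1 (log2 fold change 0.65, adjusted p = 0.0127 from limma) and Xrn2 (0.36, adjusted p = 0.0174) still passed. Rnaseh2a (0.41, adjusted p = 0.0543), Aqr (0.32, adjusted p = 0.0760) and Top3b (-0.30, adjusted p = 0.146) had estimates at least as far from 0 as in all 10 libraries and did not pass with 2 WT libraries.

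Several of the 9 genes share exonic sequence with a gene on the opposite strand, and whether fragments were counted by strand is not given in the sources used here, so reads of such pairs cannot be told apart. The neighbours were examined after the values were seen. The canonical transcripts of Rnaseh2a and Prdx2, which encodes a peroxiredoxin abundant in red cells, share 477 bases of 3020, and Prdx2 was at 135 ± 22.8 FPKM in WT and 207 ± 40.5 FPKM in the libraries labelled cKO (log2 fold change 0.61, adjusted p = 0.00616 from limma). Those of Thoc1 and Usp14, a deubiquitinase of the proteasome, share 2169 bases of 4181, and Usp14 was at 19.2 ± 1.74 and 30.7 ± 3.94 FPKM (log2 fold change 0.67, adjusted p = 3.35e-04 from limma). Both neighbours were thus expressed above the member and higher in the same libraries, and their part in the member's value was not tested. Rnaseh2c and the acetyltransferase gene Kat5 share 572 bases of 1382, and Kat5 was at 14.4 FPKM in both groups (log2 fold change -0.0011, adjusted p = 0.992 from limma). Any reads of Prdx2 or Kat5 counted for the member would also enter the RNase H2 subunit ratios, and their part there was not tested. The protein-coding neighbours of Rnaseh2b and Top3b were at or under 0.464 FPKM on average in both groups. For Xrn2, Aqr and Top1 the annotation has on the other strand only noncoding genes that are not rows of the table.

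The genes whose pattern over the 10 libraries was nearest to that of Thoc1, by the mean absolute difference of log2 levels centred on WT, were Aasdhppt (0.044), Mtx2 (0.049) and Psmg2 (0.050) among 12326 candidates with a median of 0.455. The nearest to Rnaseh2a were Adk (0.063), Iars2 (0.064) and Stk24 (0.065), with a median of 0.357. Aasdhppt, for example, went from 17.0 ± 1.64 to 25.9 ± 2.74 FPKM with cKO 1 lowest of its label and WT 3 highest of WT, as for Thoc1.

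Other genes of the same routes were taken as lists. Over 8 lists, 111 genes counted once, 29 were higher and 14 lower, with a median log2 fold change of 0.08. Every count of a list stands beside the 16.7% higher and 28.3% lower over all genes tested. Of the partners of THOC1 in TREX and mRNA export, 5 of 17 were higher and 1 lower (median 0.13). The count of 1 lower became 2 without WT 1 or WT 3 and 0 without WT 2, WT 4, WT 5 or cKO 2, and median-ratio scaling gave 8 higher and 0 lower. Scaling the libraries to an equal sum gave 4 higher and 5 lower. Testing only genes averaging 1 FPKM or more gave 4 lower, and a block for the replicate number gave 3. Thoc3 was higher at 0.53 (23.9 to 34.4 FPKM), Mcm3ap at 0.45 (13.9 to 19.0 FPKM) and the helicase gene Ddx39b at 0.37 (104 to 134 FPKM), and Zc3h11a was lower at -0.36 (5.79 to 4.47 FPKM). The other THO subunit genes, named after their values were seen, did not pass: Thoc2 at 0.13 (adjusted p = 0.169 from limma), Thoc5 at 0.16 (0.184), Thoc6 at -0.30 (0.0566) and Thoc7 at 0.19 (0.0690). Of the THO subunit genes, Thoc1 and Thoc3 were thus the ones that passed, and whether they differ from the other subunit genes was not tested.

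Among topoisomerases and their partners, 1 of 9 was higher and 3 were lower (median 0.00), with 2 higher without cKO 1 and 3 under median-ratio scaling or quantile normalization. With the Xist covariate and in the Xist-low libraries alone 0 were higher, so Tdrd3 did not pass in either setting. Tdrd3, the partner of Top3b, was higher at 0.33 (6.54 ± 0.334 to 8.22 ± 0.507 FPKM), in the direction opposite to Top3b. Rmi2, which stabilizes the dissolvasome of BLM and TOP3A, was lower at -1.72 (3.57 ± 0.209 to 1.06 ± 0.356 FPKM), Top2a at -0.45 and Top3a at -0.38. In the intron-binding complex of AQR, 1 of 4 partners was higher, Isy1 at 0.31 (7.91 to 9.84 FPKM), and none was lower, also at an unadjusted p under 0.05 from limma (median 0.13). Without WT 3, 2 were higher, and without cKO 3, 1 was lower. Median-ratio scaling gave 3 higher, and scaling to an equal sum gave 1 lower. With the Xist covariate and in the Xist-low libraries alone 0 were higher, so Isy1 did not pass in either setting. Of 22 genes of transcription termination and XRN2 binding, 5 were higher and 0 lower by limma, with 1 lower at an unadjusted p under 0.05 (median 0.08). Without cKO 1, 8 were higher and 1 lower, and 3 were higher with the Xist covariate. The list was led by Fip1l1 at 0.33, Cpsf4 at 0.33 and Cstf2 at 0.28, which encode subunits of the cleavage and polyadenylation machinery. These counts stand beside the 16.7% higher and 28.3% lower over all genes.

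The repair of ribonucleotides opened by RNase H2 is completed by a polymerase, a flap nuclease and a ligase. Of 14 such partner genes, 3 were higher and 4 lower (median 0.10), with 5 higher without WT 3, and 5 higher and 2 lower under median-ratio scaling. Pold2 was higher at 0.57 (38.0 to 56.0 FPKM), Rfc4 at 0.30 and Rfc3 at 0.29, and Pold4 was lower at -1.13 (16.0 to 7.26 FPKM), Rfc2 at -0.38 and Dna2 at -0.26. Among the other genes of Aicardi-Goutieres syndrome, Samhd1, a dNTP hydrolase, was lower at -0.85 (23.97 ± 1.73 to 13.3 ± 1.47 FPKM) and Lsm11 at -0.46. Only 1 gene was lower under quantile normalization, with the Xist covariate or in the Xist-low libraries alone. None of the 4 tested was higher, also at an unadjusted p under 0.05 from limma (median -0.26), and Trex1 is listed at 0 in all 10 libraries. The shares over all genes tested were 16.7% higher and 28.3% lower.

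Of 18 RNA:DNA helicases, 9 were higher and 4 lower (median 0.21), and 2 were lower under median-ratio scaling or with the Xist covariate. The shares over all genes tested were 16.7% higher and 28.3% lower. Dhx9 itself led the list, followed by Ddx39a at 0.92 (36.7 to 69.0 FPKM) and Blm at 0.86 (16.8 to 30.9 FPKM). Lower were Brip1 at -0.59 (6.92 to 4.56 FPKM), Ddx17 at -0.43 (106 to 78.5 FPKM) and Recql5 at -0.35 (5.72 to 4.51 FPKM). Of 24 hybrid-binding and R-loop suppressing factors, 6 were higher and 0 lower by limma, with 0 lower also at an unadjusted p under 0.05 (median 0.08). Without cKO 1, 3 were lower, without WT 3, 1 was, and median-ratio scaling gave 10 higher. The list was led by Zpr1 at 0.64, the arginine methyltransferase gene Prmt1 at 0.60 and Smn1 at 0.43.

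**Figure D5:**
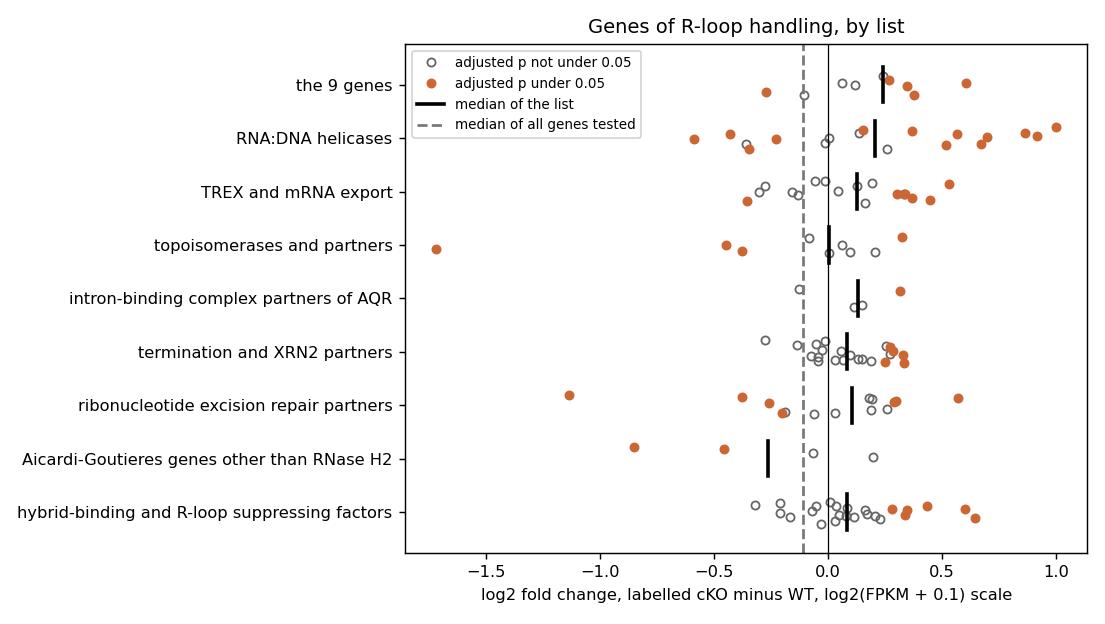
Log2 fold changes (libraries labelled cKO minus WT) of the 9 genes and of 8 lists of related genes, 1 point per gene, filled at an adjusted p under 0.05; thick bars are list medians and the dashed line is the median of all genes tested, -0.11. The median of the 9 genes is 0.24 and the list medians run from -0.26 to 0.21.

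Genes of DNA replication and cell division, in which RNase H2 also works, were read as separate lists. In the S phase list 4 of 24 genes were higher and 0 lower by limma (median 0.12), with 8 higher and 3 lower at an unadjusted p under 0.05. At an adjusted p under 0.05, 16.7% of all genes tested were higher and 28.3% lower, so the rises in this list were near that share. Chaf1b at 0.47, Mcm2 at 0.42 and Cdt1 at 0.41 led the list. Its count depended on 1 library and on the scaling, with 11 higher without WT 3, 10 under median-ratio scaling and 1 with the Xist covariate. Without cKO 1, 2 of its genes were lower, and 1 was without WT 1, cKO 3 or cKO 5. In the G2/M list 3 of 22 were higher, Cdc20 at 0.42, Mki67 at 0.35 and Ube2c at 0.34, and 5 lower (median -0.08), among them Kif23 at -0.52 and Bub1b at -0.37. Without cKO 1, 10 were lower, under quantile normalization 8, and without WT 2, WT 4, cKO 2 or cKO 3 the count was 3, as with the Xist covariate. Their part in the levels of the 9 genes was not tested.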

How the data were processed

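Total RNA of Lin- bone marrow cells had been sequenced as paired ends. The study's methods count replicates as individual mice in general, and do not state for the RNA-seq how many mice went into a library. The submitters' processing notes name cutadapt 1.9.1, HISAT2 2.0.1, HTSeq 0.6.1 and the build GRCm39. The authors deposited FPKM per gene, rounded to 2 decimals. The annotation, the gene lengths and the use of strand in counting are not given in the sources used here. All 10 columns were mapped by name.

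FPKM are not counts, so no count test was run. Depth came from genes with 1 annotated transcript, whose low values fell on whole multiples of 1 fragment (96.3% to 96.7% whole within 0.2 of a whole number). A gene of 1 kilobase at 3 fragments would be at 0.160 to 0.217 FPKM. No libraries were alike within sampling noise (lowest chi-square per degree of freedom 4.53). The test was limma 3.58.1 in R 4.3.3 (lmFit, eBayes with a trend) on log2(FPKM + 0.1) with both sides tested and p-values adjusted after Benjamini and Hochberg for 18742 genes, those averaging 0.1 FPKM or more. Fold changes are on that scale, which understates low genes. A second rule also asked for a 2-fold change. Single genes and ratios were tested by exact two-sided permutation (Python 3.11.15, scipy 1.17.1). Counting errors cover counting alone. Steps were tested on simulated data.

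The members and lists were chosen with earlier results of these data known, and no list was tested. A gene of the lists was left out and is not reported here. The rule for naming was as follows. It took all 9 members, Dhx9, Xist, Ddx3y, per list up to 3 rises and 3 falls with an adjusted p under 0.05 and an average of 1 FPKM or more, and the 3 genes nearest in pattern to the 2 members with the largest change. Ddx3y, a gene of the Y chromosome, was at or under 0.05 FPKM in WT 3, 4 and 5 and at 19.66 to 38.53 FPKM in the other 7 libraries. Of the tested identifiers, 18624 were in the annotation (GENCODE, GRCm39), and the B-lymphoid marker Vpreb1 matched none by that symbol. Alternatives were the pseudocount, the filter, 3 other scalings, no trend, a replicate block, a covariate for Xist, the libraries with Xist under 1 FPKM, and each library left out.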

Additional observations from a re-analysis of the deposited data

Results flagged for a closer look

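In groups of 5 libraries, 11 of 114 sets of values examined (members, ratios and named genes) had a highest or lowest library far from the others by Dixon's criterion at 95%, where chance flags about 1 in 20, or 5.70. Of the 11, 4 lay in library cKO 1. In that library Aqr was at 16.5 FPKM (the other 4 at 19.7 to 20.6), Top1 at 20.1 (30.9 to 34.1), Top2a at 122.4 (91.9 to 96.4) and Zc3h11a at 5.36 (4.12 to 4.41). WT 3 had Rnaseh2b at 14.0 FPKM (10.8 to 11.3) and Thoc1 at 9.44 (7.37 to 7.86). In the same library the ratio of Rnaseh2b to Rnaseh2a was 0.722 (0.590 to 0.624) and that of Rnaseh2c to Rnaseh2b 3.46 (4.39 to 4.49), and both share the value of Rnaseh2b. Rnaseh1 was at 13.0 FPKM in cKO 3 (10.5 to 11.2), Ddx17 at 125.5 in WT 1 (99.1 to 103.3) and Tdrd3 at 7.13 in WT 2 (6.32 to 6.47). The causes of these values were not tested.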

How the results depend on the processing

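Of 21 alternatives, Thoc1 (log2 fold change 0.55 to 0.77) and Xrn2 (0.25 to 0.45) passed in all, and no member changed direction. Rnaseh1 passed under median-ratio scaling (0.22) and quantile normalization (0.24), as did Rnaseh2b (0.35 and 0.34). Top3b did not pass under these (-0.17 and -0.15), leaving 0 members lower. Among all genes tested, 4685 and 3928 were lower under these scalings, beside 5300 without them. Quantile normalization moved the median of all genes from -0.11 to 0.10. Relative to that median Top1 was at -0.08 and Rnaseh2c at -0.29, beside 0.17 and -0.0003 without it. Rnaseh1 was at 0.060 in both settings on Xist. With a covariate for Xist, Aqr (0.32) and Top3b (-0.30) no longer passed. In the Xist-low libraries alone, neither did Rnaseh2a (0.41), Aqr (0.32) or Top3b (-0.30), leaving 2 members higher and 0 lower. Counts over all genes tested fell there too, to 1651 higher and 3181 lower. The median of the 9 genes was 0.35 under median-ratio scaling and 0.32 in both settings on Xist.

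Leaving out single libraries gave 0.066 to 0.14 for Rnaseh1, 0.16 to 0.31 for Rnaseh2b, -0.17 to -0.065 for Rnaseh2c, 0.0072 to 0.20 for Top1, -0.33 to -0.23 for Top3b, 0.20 to 0.30 for the median, -0.20 to -0.072 for the log2 ratio of Rnaseh2b to Rnaseh2a, which passed without cKO 4 (exact permutation p = 0.0397), and 0 to 2 members lower. Among all genes tested, 4734 to 5752 were lower when single libraries were left out. The member median was moved most by WT 3.

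Deviations of same-numbered libraries from their group means had correlations of -0.077 to 0.193. Such weak values cannot decide whether the numbers pair the libraries. With the replicate number as a block 4 members were higher and 1 lower, as without it, beside 3111 higher and 5069 lower among all genes tested. Ratios of Rnaseh2c to Rnaseh2a (-0.49) and to Rnaseh2b (-0.35) had an exact sign-flip p of 0.0625, the smallest that 5 pairs allow. For a member that did not pass, 5 libraries per label do not exclude a change that lies within its interval.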
